A study of Mus musculus with 56 samples.

Results

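The transcripts of 4 hormone receptors and of 6 genes that glucocorticoids are known to induce were followed through RNA-seq of mouse CD8+ T cells that recognise a fetal or graft antigen. The 10 genes were taken by symbol, as the rows of the raw count table whose Ensembl identifiers map to Nr3c1, Esr1, Pgr, Prlr, Fkbp5, Tsc22d3, Klf9, Zbtb16, Dusp1 and Per1, and all 10 were found among 55359 rows. The question they address is whether the hormones of pregnancy left a trace in cells taken from mothers after delivery. All mice were C57BL/6 females, and the CD8+ T cells specific for the model antigen OVA (TFGS) were sorted from spleen and lymph nodes at 200 cells per library and amplified by the SmartSeq2 protocol.

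The groups were Naive mice without treatment (n = 3), Sensitized mice that had received an allogeneic skin graft (n = 4), mice after a semi-allogeneic pregnancy (N+P, n = 3) and mice with a graft followed by pregnancy (S+P, n = 6). From N+P mice the PD1- subset C1 and the PD1+CD73+ subset C5 were sorted, and from S+P mice the PD1- subset C4, the PD1+CD73+ subset C5 and the PD1+CD73- subset C7. The labels give no PD1 or CD73 gate for Naive and Sensitized cells, so pregnancy and the sort gate cannot be told apart where C1, C4, C5 or C7 is set against them. Each pregnant group was also compared as whole mice, with the libraries of a mouse summed over the subsets it had. That sum weighs subsets by their libraries and not by their share of the cells in a mouse. Pregnancy and the sort gate therefore cannot be told apart in whole mice either. The paper mated S+P females a month or more after grafting, and for flow cytometry took post-partum cells within days of delivery. It took Sensitized cells a month or more after grafting. With that timing, time since the graft and pregnancy cannot be told apart in S+P against Sensitized. Fathers and skin donors carried the OVA transgene, and spleen and lymph node cells were prepared from individual mice. The mice were bought as young adults, and the labels give no hormone measurement.

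Steroid receptors are transcription factors that wait in the cytoplasm or nucleus until a hormone binds them. The glucocorticoid receptor then binds DNA at a palindromic element made of a pair of 6-letter arms and switches on feedback genes, among them its own co-chaperone Fkbp5 and the leucine zipper protein Tsc22d3, better known as GILZ. In T cells these responses are known for holding back activation, and glucocorticoid and progesterone levels are high during pregnancy and drop around delivery. Prolactin, the hormone of lactation, acts differently, through a cytokine-type receptor at the cell surface that signals through JAK2 and STAT5.

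The 56 libraries held between 6636532 and 32625243 counts with a median of 17299849, and gave 30 samples from 16 mice once technical libraries were summed. A Naive library and an S+P C4 library held identical counts and were left out of both groups. Library A of S+P C7 replicate 1 and the only library of replicate 2 differed by little (Pearson's r of 0.998 over log2 values). Among the sorted groups these libraries were averaged, library B of replicate 1 was added, and the replicates were counted as 1 sample. In the sums over whole mice the near-identical pair of libraries was left out, so S+P mouse 2 held C4 and C5 only and mouse 1 took C7 from a single library. Fewer than 9000 genes had a count in 3 samples, namely the third replicate of S+P C7 and both the second and the third of S+P C4. In the first of these 3 the summed level of 6 B and plasma cell markers was 10128 CPM and that of 5 erythroid markers was 19874 CPM, whereas the highest of the other 29 samples had 1538 and 419 CPM. CPM stands throughout for read counts scaled to a common library size by TMM. The sum of 10 CD8 T cell markers lay between 8001 and 16963 CPM in all 30 samples. That of 4 CD4 and regulatory T cell markers lay between 0 and 50.4 CPM. Of these 4, Cd4 was at 0 in every Sensitized, N+P and S+P C5 sample, but not in all Naive, S+P C4 and S+P C7 samples.

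A gene was called where edgeR's quasi-likelihood test, fitted to all tested genes, gave a Benjamini-Hochberg adjusted p under 0.1 and a log2 fold change over 0.9 in size. Of the 10 genes, 9 had enough counts to be tested in the sorted groups and 8 in whole mice, Pgr being too low for both and Zbtb16 for the second. A single call was made among them in 12 comparisons, namely that Tsc22d3 was lower in S+P C5 than in Sensitized cells, where 0.0712% of all tested genes were called. No member was called in S+P C4 against Sensitized (background 0.00509%), in S+P C7 against Sensitized (0.0305%), in S+P C5 against S+P C4 (0.0305%) or in S+P C7 against S+P C5 (0%). The same held for N+P C1 against Naive (0%), N+P C5 against Naive (0.0407%), N+P C5 against N+P C1 (0.00509%), Sensitized against Naive (0.153%), and the difference between the C5 effects of S+P and N+P (0.0254%). Among whole mice no member was called in N+P against Naive (0.303%) or in S+P against Sensitized (0.335%).

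**Figure D1:**
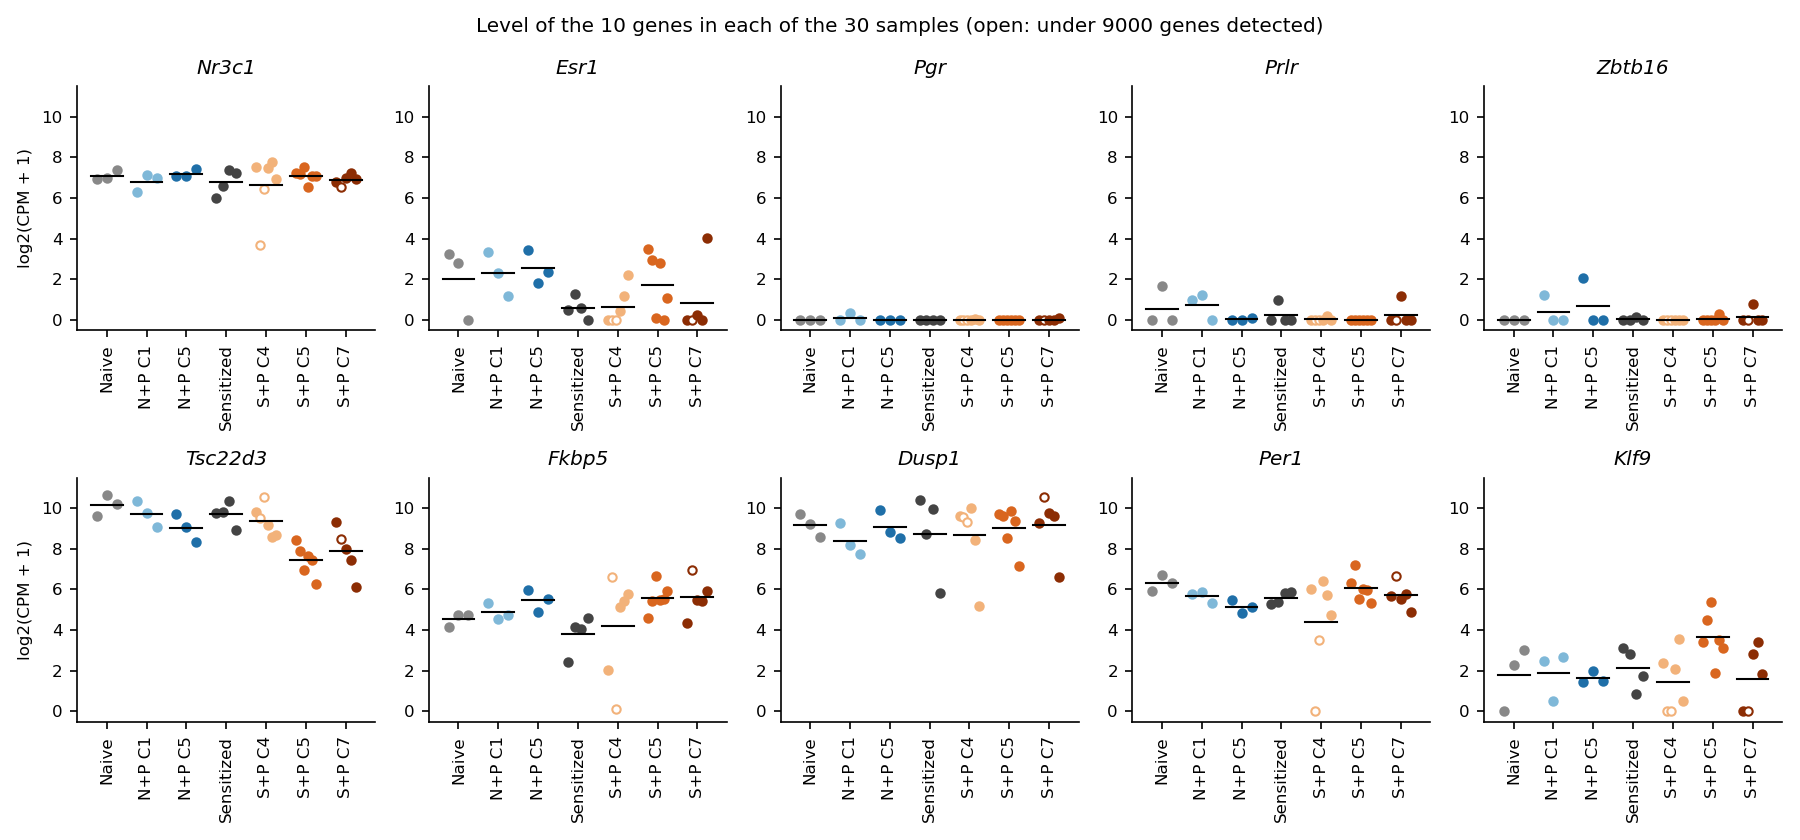
Level of each of the 10 genes as log2(CPM + 1), with 1 point per sample in the 7 sorted groups, a bar at the mean of the log values and open points for the 3 samples with under 9000 genes detected. Tsc22d3 in the 6 S+P C5 samples (76.4 to 347 CPM) sits under all 4 Sensitized samples, and Pgr, Prlr and Zbtb16 lie at or near 0 in most samples.

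Of the 4 receptors, only the glucocorticoid receptor was measured well in these cells. Nr3c1 (ENSMUSG00000024431) encodes that receptor and had at least 1 count in all 30 samples, with a median of 134 CPM, or 17.0 CPM per kilobase of exon. Naive samples had 120, 123 and 164 CPM, N+P C1 had 77.9, 139 and 124 CPM, and N+P C5 had 135, 133 and 169 CPM. Sensitized samples had 61.8, 96.5, 164 and 148 CPM. The 6 S+P C4 samples ran from 11.9 through a median of 150.2 to 218 CPM, and the 6 S+P C5 samples from 90.3 through 138 to 185 CPM. S+P C7 samples had 109, 90.2, 126, 149.7 and 119 CPM. Every group overlapped with every other, and the sole value under 60 CPM came from S+P C4 replicate 2, a sample of low gene number. No comparison reached an unadjusted p of 0.05. The 95% interval of the log2 fold change ran from −0.72 to 0.66 in N+P against Naive mice and from −0.37 to 0.73 in S+P against Sensitized mice. Changes within those intervals were not excluded.

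Esr1 (ENSMUSG00000019768, chr10:4561593-4955626 on GRCm39), which encodes estrogen receptor alpha, was low and patchy. It had 3309 counts over the 30 samples and was at 0 in 9 of them. Naive samples had 8.31, 5.83 and 0 CPM, N+P C1 had 9.28, 3.97 and 1.29 CPM, and N+P C5 had 9.78, 2.51 and 4.13 CPM. The 4 Sensitized samples had 0.377, 1.40, 0.516 and 0 CPM. S+P C4 ran from 0 through a median of 0.180 to 3.69 CPM, S+P C5 from 0 through 3.57 to 10.2 CPM, and S+P C7 had 0, 0, 0.163, 0 and 15.1 CPM. Means were lower in Sensitized than in Naive samples, yet both groups held a 0 and overlapped. Where a mouse and subset gave a pair of libraries, 12 pairs had Esr1 above 3 counts in only 1 library and 6 had it in both. Detection of Esr1 in a sample thus often did not repeat in its technical partner.

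The progesterone and prolactin receptors were at the edge of detection. Pgr (ENSMUSG00000031870, chr9:8899830-8968612), the progesterone receptor, had 10 counts in the whole table, 7 of them in N+P C1 replicate 2, and was at 0 in 27 of 30 samples. Prlr (ENSMUSG00000005268, chr15:10177258-10349959), the prolactin receptor, had 201 counts and was at 0 in 23 samples. Its highest value was 2.19 CPM, in a Naive sample. A count of 0 in a sample still allows up to 3 counts, which corresponds to between 0.0539 and 0.298 CPM depending on the sample, and covers counting error only. Prlr passed an unadjusted p of 0.05 in S+P C5 against Sensitized (p = 0.0185, adjusted p = 0.281, edgeR) and in S+P C7 against S+P C5 (p = 0.0170, adjusted p = 0.278, edgeR), where 12.7% of all genes had such a p. All 6 S+P C5 samples were at 0 for Prlr. The Sensitized signal was 20 counts in replicate 2 alone and the S+P C7 signal 39 counts in replicate 4 alone, and without either sample the respective fold change was 0. None of the 6 libraries with more than 3 Prlr counts had a technical partner that also did, and no fold is given against a group at 0.

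Among the glucocorticoid-induced genes, those well measured were, per kilobase of exon over all samples, Dusp1 at a median of 189 CPM, Tsc22d3 at 86.3, Per1 at 6.89 and Fkbp5 at 3.26, with Klf9 at 0.436 and Zbtb16 at 0. The first pair therefore exceeded the level of their receptor's transcript on the same scale, and the second pair lay below it.

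Tsc22d3 (ENSMUSG00000031431, chrX:139440091-139501408 on GRCm39, minus strand) encodes GILZ, a glucocorticoid-induced protein that dampens AP-1 and NF-kB activity in T cells and that is also high in resting T cells. Naive samples had 777, 1614 and 1167 CPM, and Sensitized samples had 864, 880.2, 1283 and 475 CPM. S+P C4 samples, the PD1- subset, ran from 383 through a median of 651 to 1484 CPM and overlapped with the Sensitized samples. S+P C5 samples ran from 76.4 through 184 to 347 CPM, so the highest of them lay under the lowest Sensitized sample and under the lowest S+P C4 sample. S+P C7 samples had 641, 351, 254, 173 and 69.5 CPM, of which 1 overlapped with the Sensitized range. In such bulk samples, fewer cells of a type and less RNA per cell cannot be told apart. Means with their SD were 875 ± 329.9 CPM in Sensitized (n = 4), 742 ± 411 in S+P C4 (n = 6), 191 ± 94.5 in S+P C5 (n = 6) and 298 ± 218 in S+P C7 (n = 5).

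In S+P C5 against Sensitized, Tsc22d3 fell by 2.19 on the log2 scale (SE 0.46, 95% interval −3.13 to −1.26, adjusted p = 0.0701, edgeR). The call was lost in 8 of the 10 fits that left out a single sample, in which the log2 fold change stayed between −2.25 and −1.94. Against S+P C4 the log2 fold change in S+P C5 was −1.95 (SE 0.43, unadjusted p = 7.03e-05, adjusted p = 0.173, edgeR), and the groups did not overlap. Leaving out the 3 samples of low gene number made this −1.55 (adjusted p = 0.194), and made the value against Sensitized −2.18 (adjusted p = 0.0109). In S+P C7 against Sensitized it was −1.56 (SE 0.48, unadjusted p = 0.00284, adjusted p = 0.473), and these values share their Sensitized samples with the S+P C5 comparison. An unadjusted p under 0.05 was held by 13.0% of all genes in S+P C5 against Sensitized, 10.2% in S+P C7 against Sensitized and 13.3% in S+P C5 against S+P C4, where 2, 1 and 1 of the 9 tested members had one.

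Within single S+P mice the PD1- subset was the highest of the subsets in every mouse. Tsc22d3 was lower in C5 than in C4 in 6 of 6 mice and lower in C7 than in C4 in 5 of 5, whereas C7 was above C5 in 4 of 5. The averaged sample of S+P C7 replicates 1 and 2 was set against mouse 1 in these counts. In N+P mice, C1 had 1308, 853 and 534 CPM and C5 had 825, 535 and 319 CPM, so C5 was lower in 3 of 3 mice, although the groups overlapped and the comparison did not reach an unadjusted p of 0.05. The difference between the C5 effects in S+P and in N+P mice was −1.11 on the log2 scale with a 95% interval of −2.62 to 0.41, and a difference between them was not shown. The paired libraries of a mouse and subset had a median absolute log2 ratio of 0.32 for Tsc22d3 over 23 pairs, against 0.87 between libraries of different mice of a group over 170 pairs.

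**Figure D2:**
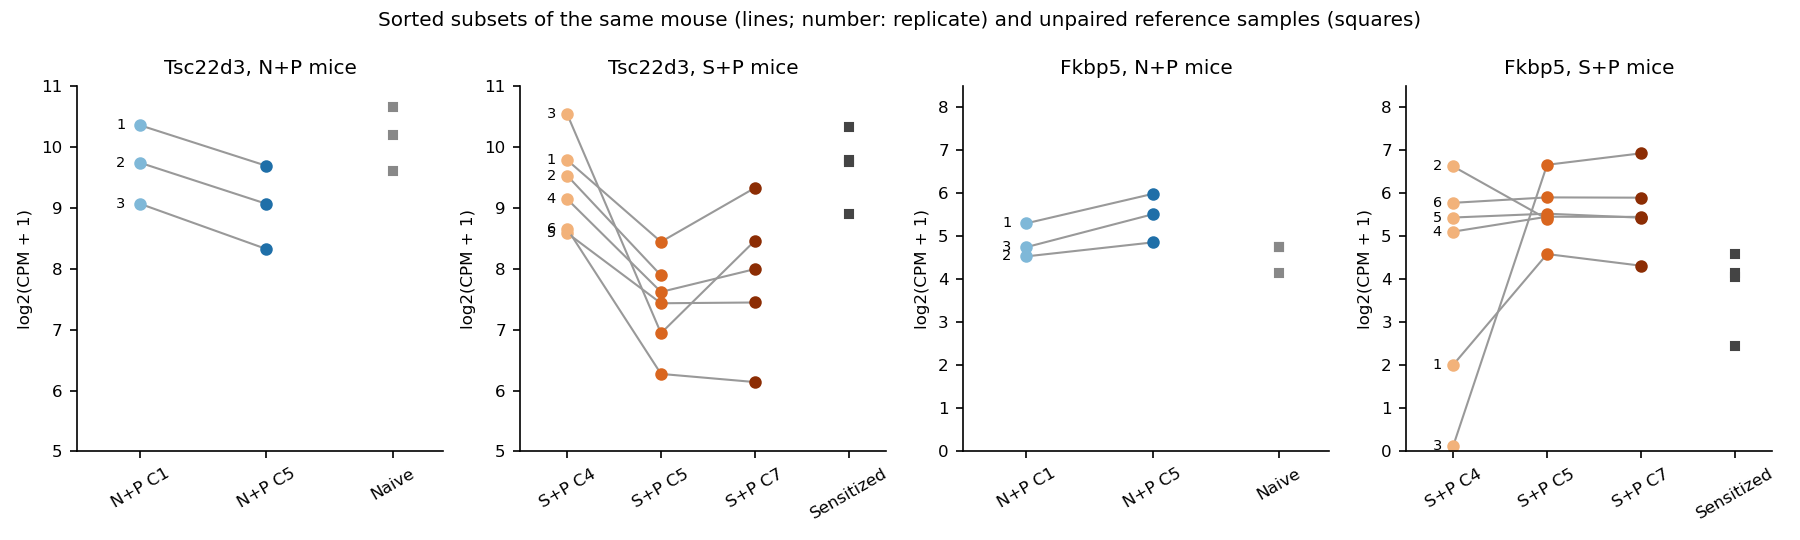
Tsc22d3 and Fkbp5 as log2(CPM + 1) in the subsets sorted from the same N+P and S+P mice, with a line and replicate number per mouse, beside Naive or Sensitized samples as unpaired squares. Tsc22d3 descends from C4 to C5 in all 6 S+P mice and from C1 to C5 in all 3 N+P mice, and Fkbp5 climbs from C4 to C5 in 5 of 6 and from C1 to C5 in 3 of 3.

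Counted once per mouse over its subsets, Tsc22d3 had 558, 516, 524, 339.8, 229.6 and 182 CPM in S+P mice and 842, 859.9, 1276 and 471 CPM in Sensitized mice. Of the 6 S+P mice, 3 lay within the Sensitized range. The log2 fold change was −1.14 (SE 0.34, unadjusted p = 0.00389, adjusted p = 0.330, edgeR) and was not called. N+P mice had 1014, 673 and 432 CPM and Naive mice 754, 1585 and 1152 CPM, with 1 of 3 N+P mice inside the Naive range. The summed B and plasma cell markers lay between 154 and 293 CPM in S+P C5 and between 211 and 623 CPM in Sensitized samples. The summed innate-like and gamma-delta T cell markers lay between 258 and 509 CPM in S+P C5 and between 171 and 229.7 CPM in Sensitized samples, without overlap. The genes of that list did not move together. Of the 6 tested, 4 rose and 2 fell against Sensitized, and the only call was Trgc2, which rose. An unadjusted p under 0.05 (edgeR) was held by 2 of the rising genes and 1 of the falling ones, beside 13.0% of all genes. Trdc and Sox13, also on that list, were at 0 in every S+P C5 sample. Sox13 was at 0 in every Sensitized sample too. In S+P C7 the sum of that list ran from 269 to 1125 CPM, also above every Sensitized sample. In S+P C4 it ran from 0.496 to 1485 CPM. Both ends were samples of low gene number, and the other S+P C4 samples lay between 104 and 272 CPM. The part of either list in the Tsc22d3 result was not tested.

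By DESeq2, the other count model, Tsc22d3 was called in S+P C5 against Sensitized (adjusted p = 0.00112), S+P C5 against S+P C4 (adjusted p = 0.000757) and S+P against Sensitized mice (adjusted p = 0.0840). That model called far more genes in general, with 5.33% of all tested genes in the first comparison, 5.24% in the second and 4.33% in the third.

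**Figure D3:**
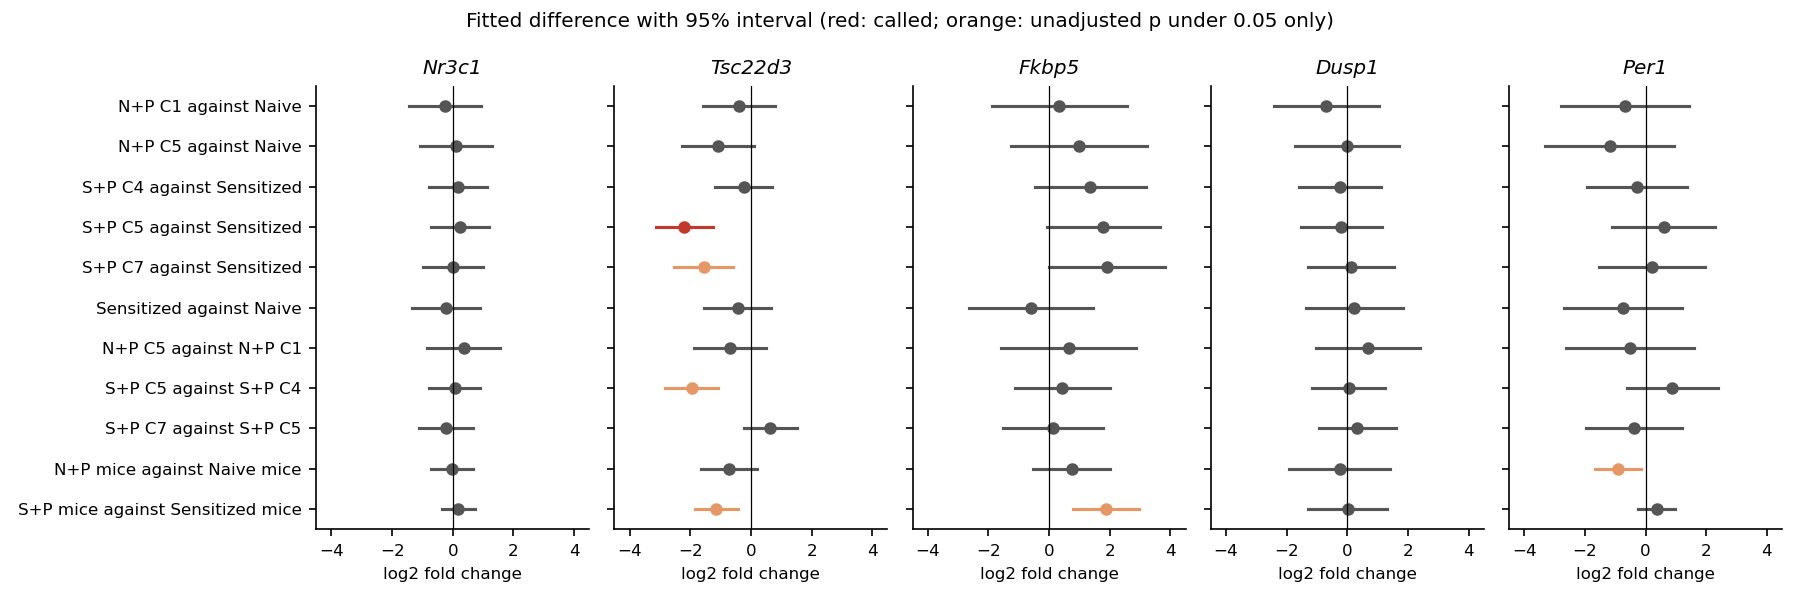
Log2 fold changes from edgeR (points) with 95% intervals (lines) for Nr3c1, Tsc22d3, Fkbp5, Dusp1 and Per1 in 11 comparisons, in red where called and in orange where only the unadjusted p was under 0.05. The sole red point is Tsc22d3 at −2.19 in S+P C5 against Sensitized, and Fkbp5 in S+P against Sensitized mice is orange at 1.88.

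The 3 RefSeq promoter windows of Tsc22d3, each of 250 bases before and 50 after an annotated start on GRCm38.p6, were searched for the glucocorticoid element GAACANNNTGTTC and for its 6-letter arm TGTTCT on both strands. The window that held an arm is shown because it is the only promoter letter match of the member that was called, with the arm in capitals at base −185 from the start.
Tsc22d3, chrX:140600473-140600772, minus strand: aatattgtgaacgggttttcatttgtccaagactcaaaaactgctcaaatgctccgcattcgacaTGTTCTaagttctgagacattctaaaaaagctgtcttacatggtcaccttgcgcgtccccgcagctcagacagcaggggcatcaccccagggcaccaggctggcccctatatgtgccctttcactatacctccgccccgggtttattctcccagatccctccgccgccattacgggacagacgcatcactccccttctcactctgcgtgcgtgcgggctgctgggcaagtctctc
None of the 3 windows held the full element, and the other two held no arm. The arm is common, being present in 19.0% of 32851 promoter windows of mouse genes, and the full element was present in 19 of them. A letter match is a description of the window, and the count data carry no information on binding.

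Fkbp5 (ENSMUSG00000024222, chr17:28618058-28737521 on GRCm39, minus strand) encodes FKBP51, an HSP90 co-chaperone that lowers the affinity of the glucocorticoid receptor for its ligand and is itself induced by the receptor. Its fold changes in S+P mice had the opposite sign to those of Tsc22d3. Sensitized samples had 4.46, 16.9, 15.7 and 23.2 CPM, and S+P C4 samples ran from 0.0993 through a median of 38.0 to 97.9 CPM. S+P C5 samples ran from 23.1 through 44.1 to 101 CPM, with the lowest just under the highest Sensitized sample. S+P C7 samples had 19.0, 121, 42.9, 42.3 and 58.8 CPM. C5 and C7 thus overlapped with the Sensitized range in 1 sample each, and neither C5 nor C7 reached an unadjusted p of 0.05 against Sensitized.

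Summed over subsets, S+P mice had 17.4, 74.3, 97.3, 38.9, 43.3 and 56.5 CPM of Fkbp5, and Sensitized mice had 4.34, 16.5, 15.6 and 23.0 CPM. Of the 6 S+P mice, 5 lay above every Sensitized mouse. The highest, mouse 3, took 2596 of its 4632 counts from S+P C7 replicate 3, the sample with high erythroid and B cell markers, and the next, mouse 2, took 1880 of 2786 from S+P C4 replicate 2, a sample of low gene number. The log2 fold change was 1.88 (SE 0.51, 95% interval 0.80 to 2.96, unadjusted p = 0.00182, adjusted p = 0.244, edgeR), which did not pass as a call, and DESeq2 gave an adjusted p of 0.00592. Without the 3 samples of low gene number it was 1.76 (adjusted p = 0.240, edgeR). In the same comparison 4 of 5 erythroid markers had an unadjusted p under 0.05, all 4 higher in S+P mice. With Tsc22d3, Fkbp5 made 2 of 8 tested members with an unadjusted p under 0.05 in that comparison, beside 10.8% of all genes.

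Without sensitization, Fkbp5 was 16.8, 25.8 and 25.9 CPM in Naive samples, 38.6, 22.2 and 26.0 CPM in N+P C1 and 62.6, 28.1 and 44.8 CPM in N+P C5. N+P C5 lay above Naive in every sample, by 0.98 on the log2 scale with a 95% interval of −1.25 to 3.21, and no p under 0.05 was reached. Within mice, C5 was above C1 in 3 of 3 N+P mice and above C4 in 5 of 6 S+P mice. The spread between the paired libraries of a sample was a median absolute log2 ratio of 0.54, against 0.95 between mice. The exons of Fkbp5 share 255 bases with Gm22146 and 143 with Gm55779 on the opposite strand, of 11066 exon bases, and whether reads were counted by strand is not given in the sources used here.

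**Figure D4:**
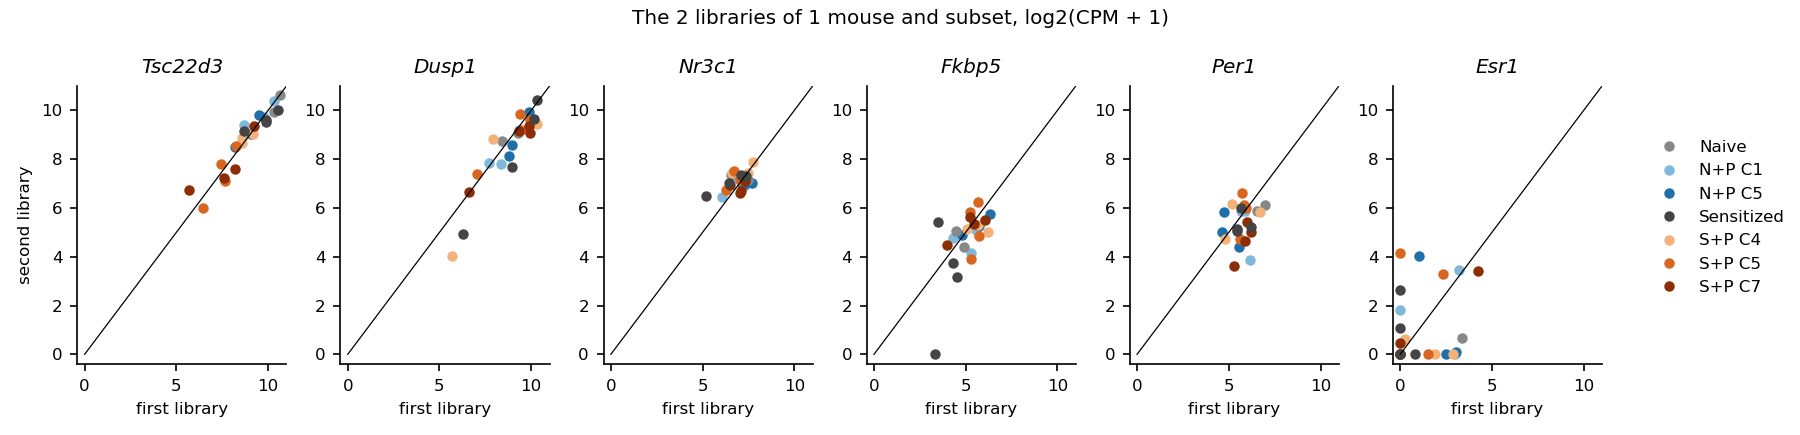
The first against the second technical library of a mouse and subset as log2(CPM + 1) for Tsc22d3, Dusp1, Nr3c1, Fkbp5, Per1 and Esr1, with 1 point per pair coloured by group and a line of equality, over 23 pairs. Pairs of Tsc22d3 lie near the line (median absolute log2 ratio 0.32), those of Per1 scatter more (0.82), and many Esr1 pairs lie on an axis, at or near 0 in 1 library.

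Per1 (ENSMUSG00000020893, chr11:68986035-69002300, plus strand), a repressor in the circadian clock that glucocorticoids also induce, was the single member with an unadjusted p under 0.05 in N+P against Naive mice. N+P mice had 47.6, 40.9 and 36.9 CPM and Naive mice had 58.1, 101 and 77.3 CPM, so the groups did not overlap. The log2 fold change was −0.91 (SE 0.37, 95% interval −1.68 to −0.14, unadjusted p = 0.0229, adjusted p = 0.779, edgeR), and 5.81% of all genes had an unadjusted p under 0.05. Paired libraries of Per1 differed by a median absolute log2 ratio of 0.82, against 0.75 between mice of a group, so the technical spread was no smaller than that between mice. In the sorted samples, Naive had 59.9, 102 and 78.4 CPM, N+P C1 54.4, 57.6 and 38.9 CPM, and N+P C5 43.5, 27.6 and 34.5 CPM, with C5 below C1 in 3 of 3 mice. Sensitized samples had 38.2, 40.0, 56.3 and 57.1 CPM and so also lay under all Naive samples. S+P C4 ran from 0 through a median of 38.8 to 83.5 CPM, S+P C5 from 38.8 through 62.7 to 145 CPM, and S+P C7 had 50.05, 100.2, 45.3, 53.6 and 28.9 CPM. No shift against Sensitized cells was seen in them, all groups overlapping. The labels give no time of day at which the mice were taken.

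Both Fkbp5 and Per1 hold full matches to the palindromic element inside the gene, on GRCm39, and the 4 stretches are shown with 60 bases to each side because these are the members with more than 1 match among the 9 searched, Nr3c1 not having been searched. Each is written on the strand of its gene, with the 13-letter match in capitals, and all 4 lie in introns.
Fkbp5, chr17:28661334-28661466, minus strand: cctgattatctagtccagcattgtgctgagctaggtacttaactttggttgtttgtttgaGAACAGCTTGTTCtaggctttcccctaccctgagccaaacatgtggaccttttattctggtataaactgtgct
Fkbp5, chr17:28639236-28639368, minus strand: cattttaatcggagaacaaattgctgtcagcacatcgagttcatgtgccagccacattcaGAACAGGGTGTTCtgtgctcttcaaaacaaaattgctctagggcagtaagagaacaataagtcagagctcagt
Per1, chr11:68987843-68987975, plus strand: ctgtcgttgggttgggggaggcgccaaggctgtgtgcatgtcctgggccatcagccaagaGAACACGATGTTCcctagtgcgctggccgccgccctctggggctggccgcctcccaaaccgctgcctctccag
Per1, chr11:68990183-68990315, plus strand: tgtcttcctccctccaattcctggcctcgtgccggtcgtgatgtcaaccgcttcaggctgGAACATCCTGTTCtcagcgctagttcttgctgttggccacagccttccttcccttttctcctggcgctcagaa
The middle of the Fkbp5 matches lies 76121 and 98219 bases from the gene's start, and that of the Per1 matches 1874 and 4214 bases. The letters GAACANNNTGTTC read the same on both strands and were found 3252 times on the 19 chromosomes searched, and 255 of 20956 protein-coding genes (1.22%) had a match within 5000 bases of their start. Over the gene and 5000 bases upstream, in the 9 members searched, Fkbp5 and Per1 had 2 matches each, Dusp1 and Prlr had 1 each, and Tsc22d3, Klf9, Zbtb16, Esr1 and Pgr had none. Of windows as long as that of Fkbp5, 15.1% held a match, and for Per1, Dusp1, Prlr and Tsc22d3 the shares were 2.75%, 7.73%, 20.8% and 8.33%.

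Dusp1 (ENSMUSG00000024190, chr17:26724564-26781102, minus strand), a phosphatase that inactivates MAP kinases, is induced by glucocorticoids and also within minutes by stress or stimulation. Naive samples had 822, 586 and 378 CPM, N+P C1 613, 285 and 211 CPM, and N+P C5 943, 451 and 370.2 CPM. Sensitized samples had the largest SD, 572 CPM, with 1338, 419.6, 986 and 55.9 CPM. S+P C4 ran from 34.99 through a median of 691 to 1029 CPM, S+P C5 from 143 through 712 to 909 CPM, and S+P C7 had 604, 1476, 852, 792 and 97.6 CPM. All groups overlapped and no comparison reached an unadjusted p of 0.05. Mice differed more than paired libraries did. S+P mouse 6 was lowest in each of the 3 subsets, and the median absolute log2 ratio was 1.28 between mice and 0.37 between paired libraries. Dusp1 shares 38 of 3324 exon bases with Ergic1 on the opposite strand.

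Klf9 (ENSMUSG00000033863, chr19:23118187-23148497), a zinc finger repressor that glucocorticoids and thyroid hormone induce, was low, with a median of 3.59 CPM. Naive samples had 0, 3.88 and 7.18 CPM, N+P C1 4.52, 0.418 and 5.37 CPM, and N+P C5 1.74, 2.95 and 1.77 CPM. Sensitized samples had 7.76, 6.10, 0.819 and 2.39 CPM, and S+P C5 samples ran from 2.66 through a median of 10.1 to 39.9 CPM. S+P C4 ran from 0 through 1.86 to 10.7 CPM and S+P C7 had 0, 0, 5.99, 9.70 and 2.52 CPM. S+P C5 had the highest mean, 15.4 ± 13.5 CPM (SD, n = 6) against 4.27 ± 3.21 in Sensitized (n = 4), with a 95% interval of the log2 fold change from −1.69 to 5.38 that held 0.

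Zbtb16 (ENSMUSG00000066687, chr9:48563141-48748664) encodes PLZF, which glucocorticoids and progesterone induce in several tissues and which in T cells marks innate-like lineages. It was at 0 in 25 of 30 samples, and its 230 counts came from 5 samples. N+P C5 replicate 1 had 151 of them (3.17 CPM) and N+P C1 replicate 1, from the same mouse, had 44. Both signals came from technical library B alone, with library A at 0. Of the paired libraries, 5 pairs had Zbtb16 above 3 counts in only 1 library and 0 had it in both. The summed innate-like and gamma-delta T cell markers were at 276 CPM in that N+P C5 sample and 94.0 CPM in that N+P C1 sample. Each was the highest of its group, the next in N+P C5 being 125 CPM and the highest Naive sample 82.8 CPM. The highest over all samples, 1485 CPM, was in S+P C4 replicate 2, a sample of low gene number with Zbtb16 at 0. The part of these markers in the Zbtb16 signal was not tested.

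The wider pathways around the members were read through 8 lists, and each list is given by how many of its tested genes were called, how many lay above or below 0 and its median, beside a median of all tested genes of −0.0052 in S+P C5 against Sensitized. Of 18 other glucocorticoid-responsive genes 16 were tested there, of which 7 were higher and 9 lower, with a median log2 fold change of −0.60. Of these 1, Il7r, was called, beside 0.0712% of all tested genes. This was the list with the most genes at an unadjusted p under 0.05 (edgeR), 1 higher and 4 lower, beside 13.0% of all genes. In S+P C5 against S+P C4 the list had 2 higher, 14 lower and 0 called, with a median of −0.88 (0.11 over all genes). In S+P C4 against Sensitized it had 7 higher, 9 lower and 0 called, with a median of −0.15 (−0.14 over all genes). Il7r, the interleukin-7 receptor that glucocorticoids raise in T cells, was 229.9 ± 45.8 CPM in S+P C5 (n = 6) and 1113 ± 310.1 CPM in Sensitized (n = 4), a log2 fold change of −2.28 (SE 0.45, adjusted p = 0.0446, edgeR). Txnip, an arrestin-like inhibitor of glucose uptake, had −1.44 (SE 0.41), and Btg2, an antiproliferative gene, had −1.34 (SE 0.36), neither of them called. Il1r2, the decoy receptor for interleukin-1, was at 0 in 3 of 6 S+P C5 samples and at 9.36, 18.3 and 15.6 CPM in the others, against 0, 0, 0 and 0.0260 CPM in Sensitized samples.

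In whole S+P against Sensitized mice, 2 of the 16 tested glucocorticoid-responsive genes were called, beside 0.335% of all tested genes, and both fell. An unadjusted p under 0.05 (edgeR) was held by 2 higher and 3 lower genes of that list, beside 10.8% of all genes. Il7r fell by 1.95 on the log2 scale (SE 0.39, adjusted p = 0.0450, edgeR) and Txnip by 1.37 (SE 0.29, adjusted p = 0.0621, edgeR), the latter from 644 CPM in Sensitized to 248 CPM in S+P mice. Nrip1 rose by 2.12 (SE 0.33, adjusted p = 0.00780, edgeR). It encodes RIP140, a corepressor of nuclear receptors that estrogen induces, and it stood in both the list of receptor chaperones and coregulators and that of estrogen-responsive genes. In the sorted samples Nrip1 was 13.2, 20.7, 16.4 and 25.8 CPM in Sensitized cells and ran from 47.7 to 173.8 CPM in S+P C5, with no overlap. Naive samples lay at 71.3 ± 13.9 CPM (SD, n = 3), so that Sensitized cells were the group with the lowest mean.

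**Figure D5:**
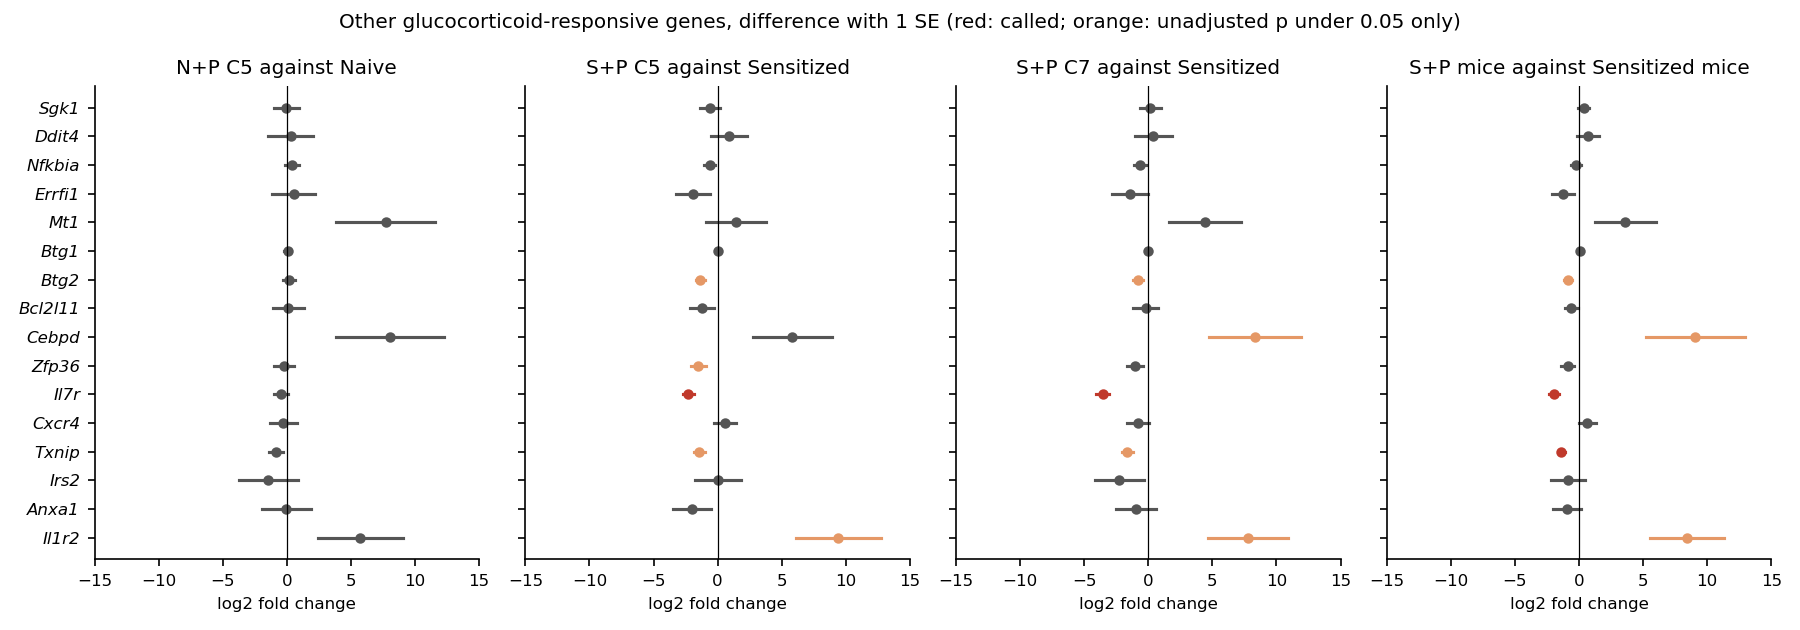
Log2 fold changes from edgeR (points) with 1 SE on each side (lines) of the 16 tested genes of the glucocorticoid-responsive list other than the members, in N+P C5 against Naive, S+P C5 and S+P C7 against Sensitized, and S+P against Sensitized mice, in red where called and in orange where only the unadjusted p was under 0.05. Il7r is red in the 3 S+P comparisons (−2.28 in C5) and Txnip in the last (−1.37), and no gene is red or orange in N+P C5.

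The remaining lists had no call in S+P C5 against Sensitized. Of 11 other steroid and growth hormone receptors 9 were tested, with 4 higher, 3 lower and a median of 0.00. The 13 receptor chaperones and coregulators had 7 higher, 6 lower and a median of 0.08. JAK2-STAT5 genes had 2 higher and 6 lower of 8 with a median of −0.48, and estrogen-responsive genes 1 higher and 6 lower of 7 with a median of −1.41. For the 14 immediate early and heat shock genes tested the count was 3 higher and 10 lower with a median of −0.44, for the 15 clock genes 6 and 9 with −0.61, and for the 4 tested of 8 steroid metabolism genes 1 and 3 with −0.70. No list of these held more than 2 genes at an unadjusted p under 0.05.

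In N+P C5 against Naive, the 16 tested glucocorticoid-responsive genes had 9 higher, 7 lower, a median of 0.09 and none at an unadjusted p under 0.05. The median was 0.46 for the other receptors, −0.06 for the chaperones and coregulators, −0.23 for steroid metabolism, 0.51 for JAK2-STAT5, 0.02 for estrogen-responsive genes, −0.31 for immediate early and heat shock genes and 0.50 for the clock. A single gene of these lists was called, beside 0.0407% of all tested genes, namely the clock repressor Bhlhe40, which T cells also raise on activation. It had 379, 182 and 154 CPM in N+P C5 and 0.206, 0 and 0.189 CPM in Naive samples (adjusted p = 0.0164, edgeR), and no fold is given against values near 0.

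Across the 30 samples, the named genes whose log2(CPM + 1) values ran closest to Tsc22d3 were Gramd2b (Pearson's r = 0.84) and Satb1 (r = 0.80), and over the 27 samples with at least 9000 genes these were 0.86 and 0.80. Fkbp5 ran closest to Scd2 (0.84, and 0.78 over 27 samples) and Stag1 (0.84 and 0.73). Dusp1 ran closest to the immediate early gene Fosb (0.77 and 0.77). For Nr3c1 the nearest were Sh3glb1 (0.87) and Tmem167 (0.87), which dropped to 0.53 and 0.44 without the 3 samples of low gene number, and for Per1 Cabin1 (0.89) and Eprs1 (0.88), which dropped to 0.24 and 0.21. These correlations describe samples that share mice, subsets and gene number, and were picked as the highest of all tested genes, so no p is given.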

How the data were processed

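RNA-seq counts were made by the authors, who trimmed reads with Cutadapt 3.4, aligned them to GRCm39 with STAR 2.6.1b, dropped multi-mapped reads and counted per gene with featureCounts 2.0.1. The deposited raw counts carry no normalization, and the annotation release and strand setting are not given in the sources used here. Libraries had no molecular identifiers, so counting intervals cover counting error only, and all were sequenced in a single run, per the labels. Gene positions came from GENCODE vM39, which held 54749 of the 55359 genes.

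Technical libraries were summed per mouse and subset. Libraries with identical counts, or with Pearson's r over 0.95 across genes that passed the filter on low counts, were treated as duplicates. Counts were tested with edgeR 4.0.16 (TMM scaling, robust quasi-likelihood F test after filterByExpr at 10 counts) in a joint fit of the 7 sorted groups, and in a second fit of 4 groups of whole mice. The thresholds of an adjusted p of 0.1 and a log2 fold change of 0.9 follow the methods of the study, which used DESeq2. DESeq2 was run here as an alternative, beside other filters, other scaling, a replicate block and fits without single samples. Intervals used the t distribution of each fit. The fits were tested on simulated data.

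Samples were grouped by title. Numbers are shared by subsets of the same N+P or S+P mouse, and deviations from group means correlated at a mean r of 0.151 between S+P C5 and C4 samples of the same mouse (−0.015 between other mice), 0.194 between C7 and C5, and 0.129 between N+P C5 and C1. Naive and Sensitized mice share only a number with the others. P-values of the fit of whole mice measure the spread between mice. The fit of the sorted groups took the 30 samples of 16 mice as independent. Its p-values therefore leave out that subsets share a mouse, and mix the spread between mice with that within them. The paper states that the cells were sorted in separate, independent experiments. Which experiment a sample came from is not in the labels, so neither fit took it into account. The part of the sorting experiment in the differences between groups was not tested.

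The members and gene lists were chosen with earlier results of these data known. A fold change was printed for a member that was called or had an unadjusted p under 0.05, for list genes that were called, for up to 4 genes of the list with the most such p-values, and the 2 genes most correlated with each member of at least 10 CPM were named, except that 1 gene for Dusp1 is not reported here. Intervals outside that rule are given where no difference was found.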

Additional observations from a re-analysis of the deposited data

Results flagged for a closer look

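In groups of 4 to 10 samples, the gap of the highest or lowest sample to its neighbour was compared with the group's range by Dixon's ratio. For normally distributed values it flags about 1 in 20 groups by chance, a rate that does not hold for counts near 0. Of 36 combinations of member and group, 10 were flagged, 8 of them on fewer than 50 counts. Esr1 stood at 15.1 CPM in S+P C7 replicate 6 and at 3.69 CPM in S+P C4 replicate 6. Pgr stood at 0.0339 CPM in S+P C4 replicate 5 and at 0.0489 CPM in S+P C7 replicate 6. Prlr was highest in Sensitized replicate 2 at 1.00 CPM, in S+P C4 replicate 5 at 0.136 CPM and in S+P C7 replicate 4 at 1.27 CPM. Zbtb16 stood at 0.121 CPM in Sensitized replicate 3, 0.229 CPM in S+P C5 replicate 5 and 0.716 CPM in S+P C7 replicate 4. In each of the Prlr, Pgr and Zbtb16 cases the other samples of the group were at 0. A group with a single sample above 0 is always flagged by this ratio, so these flags carry no further information.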

How the results depend on the processing

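The count of members called in S+P C5 against Sensitized, 1 (Tsc22d3), became 0 at an adjusted p of 0.05, with every gene of at least 1 count tested, and with a replicate block, and ranged from 0 to 1 when single samples were left out. It was 0 without Sensitized replicate 1, 2 or 3 or S+P C5 replicate 2, 3, 4, 5 or 6, where the log2 fold change of Tsc22d3 stayed between −2.25 and −1.94 (adjusted p 0.115 to 0.319). DESeq2 with technical libraries as samples gave 2 members there (Fkbp5 and Tsc22d3) and 2 in S+P C7 against Sensitized. That fit took technical libraries of the same mouse as independent samples, which they are not. The ranges over all alternatives given below include its values. In S+P C5 against S+P C4 the count of 0 became 1 (Tsc22d3) with only genes of a mean of at least 10 CPM tested and in both DESeq2 fits, and ranged from 0 to 1 when single samples were left out. In S+P against Sensitized mice it became 1 without samples under 9000 genes (Tsc22d3, −1.61, adjusted p = 0.0789) and 2 in both DESeq2 fits. The counts of 0 in the other 8 comparisons stayed 0 under every alternative run. Over all alternatives Tsc22d3 ranged from −2.45 to −1.93 in S+P C5 against Sensitized (adjusted p 2.63e-08 to 0.447), from −2.21 to −1.55 in S+P C5 against S+P C4, from −2.05 to −1.04 in S+P C7 against Sensitized and from −1.61 to −0.887 in S+P mice. Fkbp5 in S+P mice ranged from 1.57 to 2.17 (adjusted p 0.00592 to 0.500) and Per1 in N+P mice from −1.08 to −0.694. Leaving out single samples, the fitted Prlr value ranged from −6.44 to 0 in S+P C5 against Sensitized (0 without Sensitized replicate 2) and from 0 to 6.43 in S+P C7 against S+P C5 (0 without S+P C7 replicate 4), values set by the prior count. DESeq2 on summed libraries called between 551 and 1078 genes of the whole table per comparison, where edgeR called 0 to 64, and the cause was not tested.

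A replicate block pairs subsets of the same mouse in S+P C5 against S+P C4, where Tsc22d3 was −1.92 (adjusted p = 0.310), and in N+P C5 against N+P C1. It was run in a fit of only the groups compared, so it is set against the same fit without it, in which the genes called over the whole table numbered 2 and 51, and 0 and 29 with the block. No member was called in any of these 4 fits. In comparisons with Naive or Sensitized mice the samples share only a number. Under that block Tsc22d3 was −1.93 (adjusted p = 0.447) in the C5 subset of S+P mice and −1.04 in their C7 subset against Sensitized. No other count of members changed under the block.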
